A study of Mus musculus with 10 samples.

Results

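Transcripts of 9 genes of acetylcholine synthesis, transport and breakdown, choline transporters and cholinesterase anchors included, were followed on 10 Affymetrix arrays of mouse heart. The genes were chosen by name: Slc18a3, Chat, Slc5a7, Ache, Bche, Colq, Prima1, Slc44a1 and Slc22a2, of 19938 named genes in all, each through a probe set annotated with that symbol alone. Where a gene had more than 1 such probe set, as Slc44a1 did, the brightest was kept. The groups were 3 arrays of ventricular cardiomyocytes from wild-type (WT) mice, 3 of ventricular cardiomyocytes from VAChT knockdown (KD) mice, 2 of WT whole hearts and 2 of KD whole hearts. VAChT is the vesicular acetylcholine transporter, the product of Slc18a3. All mice were 3-month-old C57BL/6 males without treatment, and the RNA of 2 samples was pooled for each array. The series title writes the genotype as KDHOM, and the labels name neither the allele nor how far it lowers VAChT. Nor is it said whether arrays came from separate animals beyond this pooling, so the spread behind the p-values can be partly technical.

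Acetylcholine is made in the cytoplasm by choline acetyltransferase, loaded into vesicles by VAChT, released, and split by cholinesterases; the choline is then taken up again. In the heart it comes mainly from parasympathetic nerve endings and the ganglia on the heart, and cardiomyocytes have also been described as making some. The RNA of a neuron lies mostly in its cell body, so a whole heart holds little RNA of nerves whose cell bodies lie elsewhere. In bulk samples, fewer cells of a type and less RNA per cell cannot be told apart.

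Values are log2 intensities, on which a difference of 1 is a 2-fold ratio, and the sources used here do not say whether cells and hearts were normalized together. Array medians over named genes lay between 6.19 and 6.27 in cardiomyocytes and between 7.54 and 7.59 in hearts, so KD was compared with WT within each kind of sample. A brighter probe set does not mean a more abundant transcript, and there were no detection calls. As a description of dim signal, 1228 genes of olfactory, vomeronasal and bitter taste receptors (chemosensory genes below), which the heart is known to express little, were taken as a reference. Their 95th percentile was 5.55 in WT and 5.59 in KD cardiomyocytes, and 7.10 in WT and KD hearts alike; 61.4% to 63.4% of all named genes lay above it. All 10 ventricular muscle markers lay above it on every array, with a mean of 12.81 to 13.07. Of 14 neuronal markers, 5 to 7 lay above it per array. KD heart array 1 stood apart: 10 thymocyte and T cell markers averaged 3.04 above the WT heart mean there and 0.06 above it in KD heart array 2. The 6 atrial markers had mean differences from WT hearts of -0.25 in KD array 1 and -1.21 in KD array 2. They also varied among the cell arrays. Relative to the WT cell mean they averaged 0.39, 0.54 and -0.92 on WT cell arrays 1, 2 and 3. On KD cell arrays 1, 2 and 3 they averaged 0.20, -0.43 and -0.21. The part of these thymocyte and atrial markers in the values below was not tested. The ventricular markers were lower in KD hearts in 10 of 10 (median difference -0.14), as were 1511 of the 1994 brightest genes (median -0.10).

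No member differed between KD and WT in either kind of sample at a limma adjusted p under 0.05, the threshold used throughout, and 0 of 19938 genes (0%) passed it in cardiomyocytes, in hearts or in the difference between them. Of the 9 members, 7 had a higher KD mean in cardiomyocytes (median difference 0.03) and 7 in hearts (0.06), where 50.0% and 52.5% of all genes did. In hearts the count was 7 of 9 (median 0.24) without KD array 1 and 3 of 9 (median -0.05) without KD array 2. At an unadjusted p under 0.05, 419 genes (2.1%) were counted in cardiomyocytes, with no member among them, and 982 (4.93%) in hearts, where Colq was the only member. Colq, the collagen tail that anchors acetylcholinesterase outside the cell, and Bche, butyrylcholinesterase, were the members with the largest differences in either direction, and in both genes the difference had opposite signs in cardiomyocytes and hearts.

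**Figure D1:**
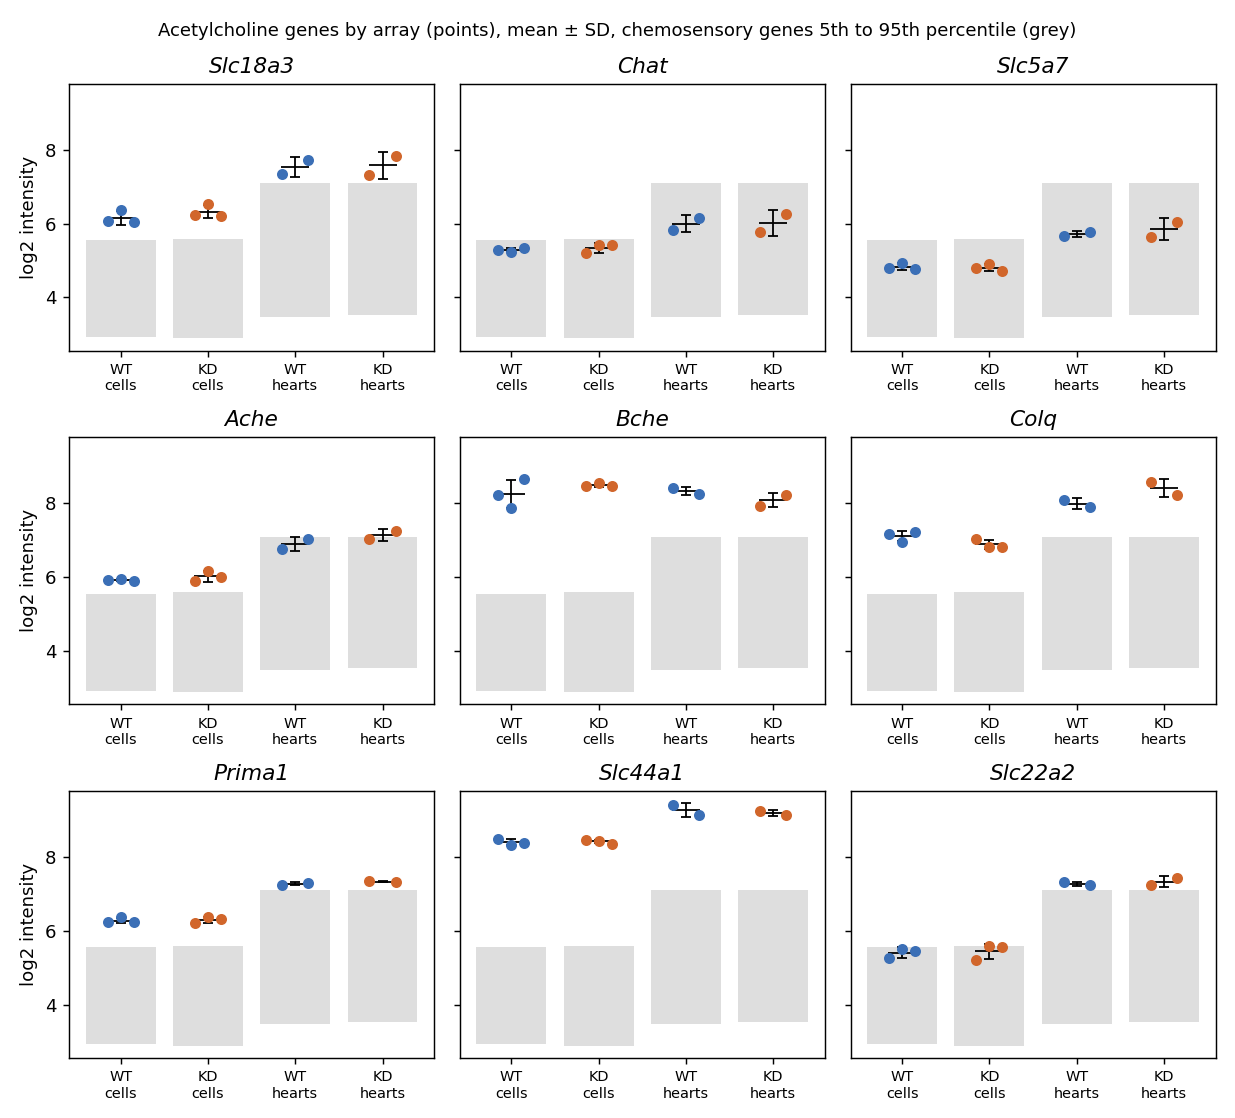
Log2 intensity (vertical axis) of the 9 genes on each array (points; blue WT, orange KD) in cardiomyocytes (cells) and whole hearts, with the group mean and SD (bars) and the 5th to 95th percentile of the group means of chemosensory genes (grey). The group means of Chat and Slc5a7 lie inside the grey range in all 4 groups, and those of Slc18a3, Prima1, Bche, Colq and Slc44a1 lie above it in all 4.

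The synthesis and loading genes come first. Slc18a3, which encodes VAChT, exchanges protons for acetylcholine at the vesicle membrane. Its gene lies inside the span of Chat in the RefSeq annotation, an arrangement known as the cholinergic gene locus. The WT cardiomyocyte arrays gave log2 intensities of 6.06, 6.37 and 6.04, and the KD arrays 6.22, 6.52 and 6.21. The highest array was a KD array and the lowest a WT array, and the groups overlapped. The KD minus WT difference was 0.16 (SE 0.16, 95% confidence interval -0.18 to 0.50; limma adjusted p = 1), which is 1.12-fold with an interval of 0.88 to 1.42. A KD signal under 0.88 of WT lies outside this interval, but how much of the signal is background is not known. A lower transcript level may therefore not have been measurable here. The group means lay above the reference line, by 0.61 in WT and 0.73 in KD cells. How far the array scale compresses differences of this probe set was not tested. In hearts Slc18a3 measured 7.34 and 7.72 on WT and 7.31 and 7.84 on KD arrays. The spread inside each genotype, 0.38 in WT and 0.52 in KD, was larger than the difference of 0.05 (interval -0.37 to 0.46), and that difference was 0.31 without KD array 1 and -0.22 without KD array 2. The group means lay at the 98.5th and 98.8th percentile of the chemosensory genes in WT and KD cardiomyocytes and at the 97.8th and 97.9th in hearts, and between the 48.8th and 51.9th percentile of all named genes. The position of its probes relative to the KD allele is not given in the sources used here.

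Chat, choline acetyltransferase, joins choline and acetyl-CoA. It measured 5.29, 5.24 and 5.33 on WT and 5.19, 5.41 and 5.41 on KD arrays of cardiomyocytes. The WT hearts gave 5.83 and 6.16, and the KD hearts 5.78 and 6.27. The KD and WT arrays overlapped in both, with differences of 0.05 (SE 0.13) in cells and 0.03 (SE 0.16) in hearts; the latter was -0.22 without KD array 2 and 0.27 without KD array 1. Its group means were at the 92.7th and 93.1st percentile of the chemosensory genes in cells and at the 75.3rd and 76th in hearts, below the reference line in all 4 groups.

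Slc5a7, the high-affinity choline transporter of cholinergic nerve endings, was the member lowest in the reference. It measured 4.79, 4.94 and 4.76 on WT and 4.79, 4.91 and 4.72 on KD arrays of cardiomyocytes, and 5.66 and 5.77 in WT and 5.64 and 6.05 in KD hearts. The arrays overlapped in both kinds of sample. The difference was -0.03 (interval -0.28 to 0.22) in cells and 0.13 (interval -0.18 to 0.44) in hearts, where it was -0.08 without KD array 2 and 0.34 without KD array 1. Its means lay at the 84.2nd and 83.8th percentile of the chemosensory genes in cells and at the 67.1st and 70.6th in hearts. The signals of Chat and Slc5a7 were thus within the range of the receptor genes, and a difference in their transcripts may not have been measurable here.

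Choline also enters cells by transporters that are not restricted to nerves. Slc44a1, the choline transporter-like protein CTL1, measured 8.49, 8.32 and 8.38 on WT and 8.45, 8.44 and 8.36 on KD arrays of cardiomyocytes. All 6 arrays lay within 0.17 of each other. The difference was 0.02 (SE 0.10, interval -0.20 to 0.25), 1.02-fold with an interval of 0.87 to 1.19. The WT hearts gave 9.40 and 9.14 and the KD hearts 9.25 and 9.14, a difference of -0.08 (SE 0.13, interval -0.35 to 0.20), with both KD arrays inside the WT range. Slc44a1 lay between the 84.3rd and 86.1st percentile of all named genes in the 4 groups, and above 99.9% of chemosensory genes or more. A second probe set for Slc44a1 was more variable: 5.84, 5.61 and 7.01 in WT and 5.76, 6.48 and 5.64 in KD cells, and 9.57 and 8.76 in WT and 9.04 and 8.47 in KD hearts. Its KD minus WT differences, -0.19 in cells and -0.41 in hearts, were smaller than the larger SD of the groups (0.75 and 0.58).

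Slc22a2, the organic cation transporter OCT2, carries choline and other cations and is best known from the kidney. It measured 5.26, 5.52 and 5.45 on WT and 5.20, 5.58 and 5.55 on KD arrays of cardiomyocytes, below the reference line of chemosensory genes in both group means. The WT hearts gave 7.32 and 7.23 and the KD hearts 7.23 and 7.44, just above the line, at the 96.6th and 96.7th percentile of the chemosensory genes. The KD arrays spanned the WT arrays in both. The differences were 0.03 (interval -0.23 to 0.30) in cells and 0.06 (interval -0.26 to 0.38) in hearts, where it was 0.17 without KD array 1 and -0.05 without KD array 2.

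Of the enzymes that split acetylcholine, acetylcholinesterase works at synapses and on red cells, and butyrylcholinesterase is made more widely and circulates in plasma. Ache measured 5.92, 5.94 and 5.90 on WT and 5.89, 6.16 and 6.01 on KD arrays of cardiomyocytes. The WT arrays spanned only 0.03, and the lowest array was a KD array. The difference was 0.10 (SE 0.11, interval -0.14 to 0.34). In hearts Ache measured 6.76 and 7.03 on WT and 7.02 and 7.26 on KD arrays. The lower KD array lay just under the higher WT array, so the groups overlapped, and the difference was 0.25 (SE 0.14, interval -0.05 to 0.54; limma adjusted p = 1, unadjusted 0.096). It was 0.37 without KD array 1, 0.13 without KD array 2, 0.11 without WT array 1 and 0.38 without WT array 2. The WT heart mean of 6.90 was below and the KD mean of 7.14 above the reference line of 7.10. The 3 measured red cell markers, Alas2, Epb42 and Slc4a1, averaged 0.47 and 0.61 above the WT heart mean in the KD heart arrays, and -0.16 and 0.16 around it in the WT arrays; their part in the Ache values was not tested.

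Bche was bright in every group. In WT cardiomyocytes it was 8.23, 7.88 and 8.66, and in KD 8.47, 8.54 and 8.46. The KD arrays lay within 0.08 of each other and inside the WT range. The difference was 0.24 (SE 0.16, interval -0.11 to 0.59; limma adjusted p = 1), and it rested on WT array 2, without which it was 0.05; without WT array 3 it was 0.44. Relative to the WT mean, 7 fibroblast markers averaged -0.34 on WT array 2, 0.22 and 0.12 on WT arrays 1 and 3, and -0.15 to 0.09 in KD. Macrophage markers averaged -0.25 on WT array 2, -0.11 and 0.36 on WT arrays 1 and 3, and -0.34 to -0.20 in KD. Endothelial (-0.16) and smooth muscle (-0.13) markers were also lowest on WT array 2 among the WT arrays. The part of these markers in the cell values of Bche was not tested. In hearts Bche measured 8.42 and 8.26 on WT and 7.94 and 8.23 on KD arrays. Neither KD array reached a WT array, the nearest falling short by a margin of only 0.03; WT and KD heart arrays did not overlap, in either direction, in 29.6% of all genes. The difference was -0.25 (SE 0.20, interval -0.69 to 0.18), and it was -0.11 without KD array 1 and -0.39 without KD array 2. The 7 fibroblast markers were lower in KD hearts in 7 of 7, with a median difference of -0.27, and none of them passed. Endothelial markers (6 of 6, median -0.21), smooth muscle markers (5 of 5, -0.14) and adipocyte markers (5 of 5, -0.20) were lower there too. Macrophage markers were higher there in 6 of 7 (median 0.07). The part of all these markers in the Bche values was not tested. Bche stood 2.04 above the array medians in WT cells and 0.80 above them in WT hearts, at the 82.7th and 69.9th percentile of named genes. Labelling protocol and kind of sample cannot be told apart in this shift.

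The other cholinesterase genes encode the anchors that fix the enzymes in place. Colq binds the catalytic tetramers to the basal lamina, as at the neuromuscular junction. In cardiomyocytes Colq measured 7.18, 6.96 and 7.22 on WT and 7.03, 6.82 and 6.82 on KD arrays. All KD arrays lay below the WT mean of 7.12, but the highest KD array exceeded the lowest WT array, so the groups overlapped; 6.21% of all genes did not overlap. The difference was -0.23 (SE 0.12, interval -0.50 to 0.04; limma adjusted p = 1, unadjusted 0.089), 0.85-fold. In hearts Colq measured 8.09 and 7.89 on WT and 8.58 and 8.23 on KD arrays. Both KD arrays lay above both WT arrays, as in 14.2% of all genes. The difference was 0.41 (SE 0.15, interval 0.08 to 0.74), 1.33-fold with an interval of 1.06 to 1.68. Its limma adjusted p was 0.95 and the unadjusted p 0.018, so it did not pass. The highest value was on KD heart array 1, the array with the thymocyte signal. Without it the difference was 0.24, and without KD array 2 it was 0.59. Each of these values rests on 1 KD array.

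The KD minus WT difference of Colq in cardiomyocytes was lower than that in hearts by 0.64 on the log2 scale (SE 0.20, interval of the signed difference -1.07 to -0.22). Its unadjusted p was 0.0062, the 64th smallest of all genes, where 3.49% of genes had one under 0.05; the limma adjusted p was 0.999, so no difference between the kinds of sample was called. The corresponding value for Bche was 0.49 (SE 0.26, interval -0.07 to 1.05; limma adjusted p = 0.999). For the other 7 members the difference between cells and hearts was -0.16 to 0.11, with every interval including 0.

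Prima1, the membrane anchor that holds cholinesterases on the surface of neurons, had within-group SDs of 0.01 to 0.08. It measured 6.24, 6.36 and 6.23 on WT and 6.22, 6.38 and 6.31 on KD arrays of cardiomyocytes, and 7.24 and 7.29 in WT and 7.34 and 7.32 in KD hearts. The cell arrays overlapped, and the KD heart arrays lay above the WT heart arrays by a margin of 0.03, as KD arrays did in 14.2% of all genes. The difference was 0.03 (SE 0.09, interval -0.17 to 0.23) in cells and 0.06 (SE 0.11, interval -0.18 to 0.31) in hearts. Prima1 lay above the reference line in the 4 groups, by 0.71 to 0.73 in cells and 0.17 to 0.23 in hearts.

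**Figure D2:**
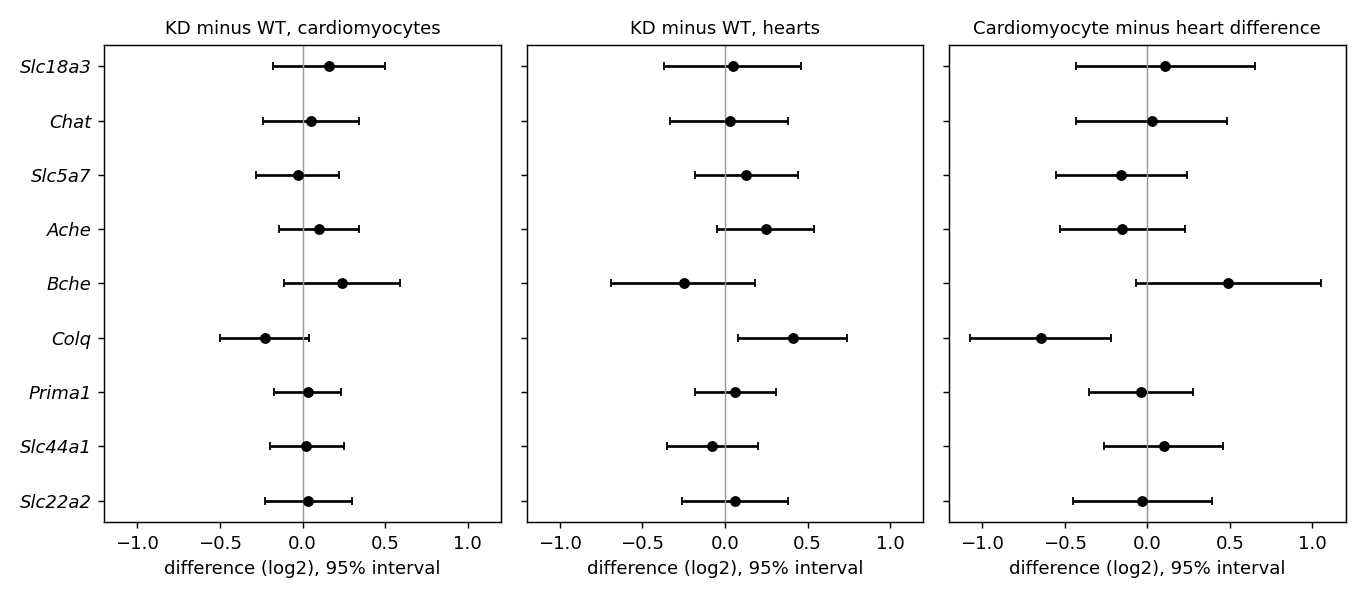
Difference in log2 intensity (horizontal axis) with its 95% confidence interval from limma for the 9 genes, for KD minus WT in cardiomyocytes, KD minus WT in hearts, and the first minus the second. The intervals include 0 for all genes except Colq in hearts (0.08 to 0.74) and in the difference between the kinds of sample (-1.07 to -0.22), neither of which passed after adjustment.

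Arrays of 1 group differed from each other in a way several members shared. The arrays labelled 2 were the highest of their group in all 4 groups for Slc18a3, Slc5a7 and Ache, as they were for 7.25% of all genes and 8.06% of the chemosensory genes. Slc18a3 was above its group mean by 0.21 and 0.20 on array 2 of WT and KD cells, and by 0.19 and 0.26 on array 2 of WT and KD hearts. The median deviation of the chemosensory genes on these arrays was smaller and in the same direction, at 0.03, 0.03, 0.01 and 0.06. Over the 10 arrays the deviations of Slc18a3 from its group means had a Pearson r of 0.92 (Spearman 0.89) with those medians, and 0.88 without both KD heart arrays, the farthest ones. Slc5a7 had r = 0.95 and Ache r = 0.78, while Colq ran the other way at -0.93 (Spearman -0.95), and -0.91 without both KD heart arrays. Chat had r = 0.76, which was 0.39 without the KD heart arrays. With and without those arrays r was 0.50 and 0.96 for Prima1 and -0.12 and -0.68 for Bche. It was 0.62 and 0.56 for Slc22a2, and -0.50 and -0.44 for Slc44a1. How common such values with the chemosensory medians are among all genes is not given here. These values are a description over arrays whose deviations sum to 0 within each group, and share normalization. The genes most like Slc18a3 in these deviations were Siglec15 (r = 0.987), Rsph6a (0.984) and Zbtb45 (0.982), and 177 of 19937 genes (0.888%) had an r of at least 0.9.

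**Figure D3:**
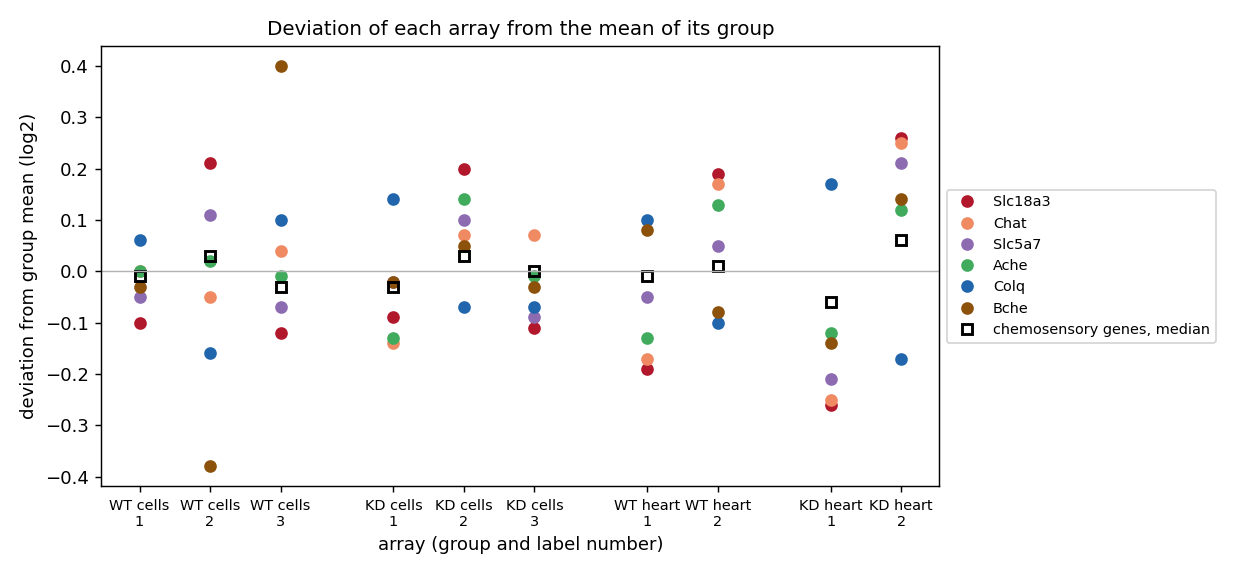
Deviation of each array from the mean of its group in log2 units (vertical axis) for 6 genes (filled points) and the median over the chemosensory genes (open squares), by group and label number (horizontal axis). Slc18a3 is above 0 on the array labelled 2 of each group, with deviations of 0.19 to 0.26, and Colq is below 0 there.

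Colq also lies within 1 Mb of Slc18a3 in the RefSeq annotation (GRCm38.p6), as does Chat. Of the 26 other named genes in that window, Colq and Chat included, 11 had a higher KD mean in cardiomyocytes (median difference -0.02) and 14 in hearts (0.01). With an unadjusted p under 0.05 there were 0 in cardiomyocytes and 1, Colq, in hearts, and none passed after adjustment. The cell arrays did not overlap in 1 of the 26 genes, against 6.21% of all genes, and the heart arrays in 6 of 26, against 29.6%. The 1 gene in cells was Ogdhl, a relative of an oxoglutarate dehydrogenase subunit, at 6.17 in KD and 7.29 in WT (difference -1.12, SE 0.65, unadjusted p = 0.11 in limma). In hearts its arrays overlapped, with a difference of -0.15. Ogdhl was named after its values were seen.

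Genes around the pathway were described by 7 lists. The lists with the largest medians were those of acetyl-CoA supply and organic cation transporters in hearts. All 8 acetyl-CoA supply genes had a lower KD mean in hearts, with a median difference of -0.33. An unadjusted p under 0.05 in limma was found in 3 of 8, against 4.93% of all genes. Pdhb, which encodes part of the pyruvate dehydrogenase complex, gave 12.88 and 12.76 in WT hearts and 12.31 and 12.55 in KD hearts (difference -0.39, SE 0.13). The genotypes did not overlap, as in 29.6% of all genes in hearts, either direction counted. Pdha1, another subunit, differed by -0.32 and Dlat, the acetyltransferase of the same complex, by -0.34, and none passed after adjustment. The median was -0.48 without KD array 1, -0.16 without KD array 2, -0.13 without WT array 1 and -0.49 without WT array 2. Lower KD values were also common among bright genes in hearts, as in the 1511 of 1994 given above. In cardiomyocytes 4 of the 8 acetyl-CoA genes were higher in KD, with a median of 0.01.

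Of 4 measured organic cation and carnitine transporters, 4 had a higher KD mean in cells (median 0.13) and 1 in hearts (median -0.21), with no unadjusted p under 0.05. Of 14 measured genes of choline uptake and use, 7 were higher in KD in cells and 8 in hearts, with medians of 0.005 and 0.02. The heart median turned to between -0.045 and -0.003 when any 1 of the 4 heart arrays was left out. Slc44a2, a paralog of Slc44a1, measured 9.29, 9.21 and 9.18 on WT and 9.06, 8.78 and 9.11 on KD arrays of cells. The KD arrays all lay below the WT arrays (difference -0.24, SE 0.14, unadjusted p = 0.1 in limma). Cell arrays did not overlap, in either direction, in 6.21% of all genes. Chdh, choline dehydrogenase of mitochondria, measured 7.26 and 7.31 on WT and 7.69 and 7.55 on KD arrays of hearts (difference 0.33, SE 0.12, unadjusted p = 0.017 in limma, adjusted 0.95). Gpcpd1, a glycerophosphocholine phosphodiesterase, differed by -0.34 in hearts (SE 0.17, unadjusted p = 0.067 in limma) and Chpt1, choline phosphotransferase, by -0.30 (SE 0.16, unadjusted p = 0.095 in limma). In both the KD heart arrays lay below the WT heart arrays, but only narrowly. The nearest arrays were 11.01 in KD and 11.04 in WT for Gpcpd1, and 11.32 in both after rounding for Chpt1. WT and KD heart arrays did not overlap, in either direction, in 29.6% of all genes.

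Of 9 other vesicular and plasma membrane transmitter transporters, 5 were higher in KD in cells (median 0.06) and 8 in hearts (median 0.11; -0.02 without KD array 2 and 0.22 without KD array 1). Slc18a1, the vesicular monoamine transporter VMAT1 and a relative of Slc18a3, measured 5.15, 5.44 and 5.27 on WT and 5.68, 5.47 and 5.60 on KD arrays of cells. The KD arrays lay above the WT arrays, the lowest by 0.03, and the difference was 0.30 (SE 0.11, unadjusted p = 0.017 and adjusted p = 1 in limma). Cell arrays did not overlap, in either direction, in 6.21% of all genes. Slc18a1 lay at the 92.7th percentile of the chemosensory genes in WT cells, so its signal was dim. The 16 measured vesicle release genes had medians of -0.005 in cells and -0.01 in hearts, with 8 and 7 higher. In hearts 12 of 16 were higher without KD array 1 (median 0.07) and 4 of 16 without KD array 2 (median -0.10); the median was -0.055 without WT array 1 and 0.06 without WT array 2. The 10 genes of cholinesterase anchoring and processing had medians of 0.02 and -0.08. The 14 measured genes of the list named cholinergic neuron identity had medians of -0.06 and 0.075. This list includes Hand1, Hand2, Tbx20, Lifr and Il6st and is not restricted to neurons. Il6st averaged 10.23 on the WT cardiomyocyte arrays. In hearts 13 of 14 were higher without KD array 1 (median 0.12) and 5 of 14 without KD array 2 (median -0.05). Of these, Gata3, a transcription factor of neurons and of T cells, was 6.57 and 6.81 in WT hearts and 8.16 and 6.79 in KD hearts, high only on KD array 1, the array with the thymocyte signal.

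**Figure D4:**
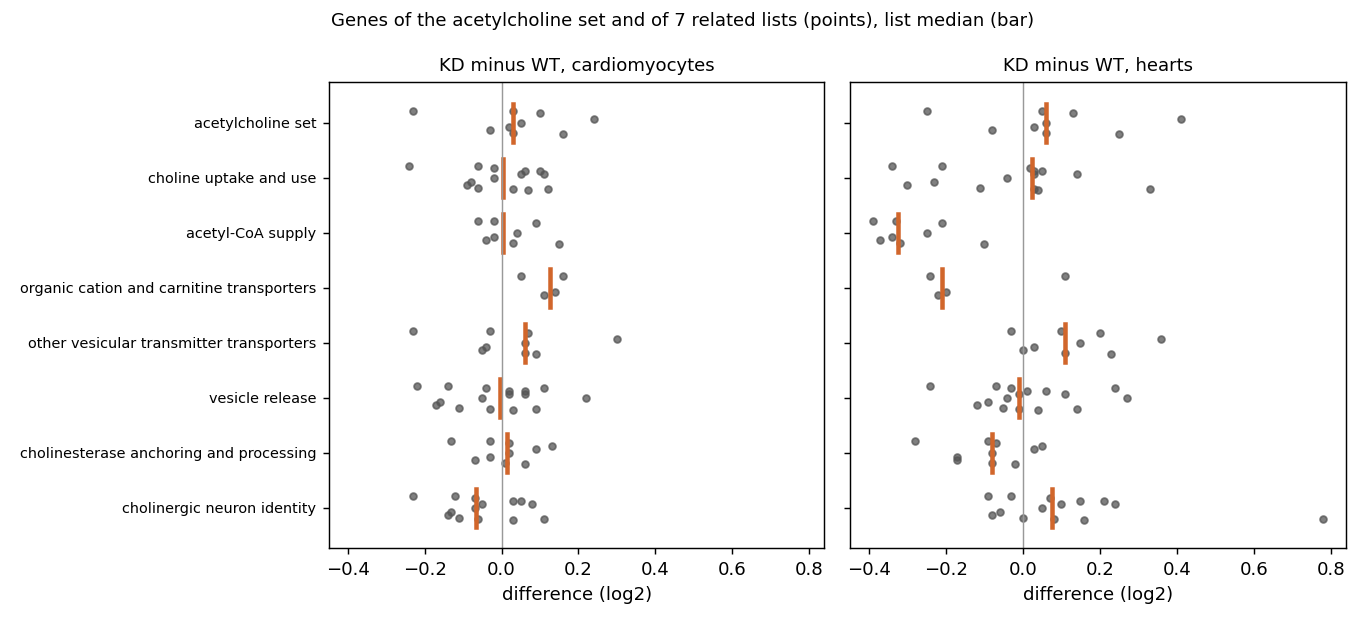
KD minus WT difference in log2 intensity (horizontal axis) of each measured gene (points) of the 9-gene acetylcholine set and of 7 related lists, with the list median (orange bar), in cardiomyocytes and hearts. The acetyl-CoA supply genes lie below 0 in hearts (median -0.33) and on both sides of 0 in cardiomyocytes (0.01).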

How the data were processed

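RNA, extracted with a Bio-Rad tissue kit, was made into biotin-labelled cDNA, which was hybridised to arrays, per the labels' protocols. An Ambion manual is named for the cells only, so labelling cannot be told apart from the kind of sample. The values deposited by the authors were log2 intensities of 35556 probe sets, made with RMA and Partek per the submitters' processing notes; the sources used here give no version or setting. RMA compresses differences of dim probe sets. The annotation gave 1 symbol to 21789 probe sets, several to 1621 (left out) and none to 12146; the brightest probe set per gene over the 10 arrays was kept. No symbol changed when matched by Entrez identifier to the reference table.

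All arrays were fitted in limma 3.58.1 (R 4.3.3) with 4 group means and eBayes with an intensity trend, two-sided, with Benjamini-Hochberg adjustment over 19938 genes at 0.05. The code was tested on simulated data. The smallest p that an exact permutation test allows is 0.1 for cells and 0.33 for hearts. Members, lists and alternatives were chosen with earlier results of these data known. All 9 members were named, up to 3 genes of each related list by smallest p, and the 3 genes most like Slc18a3; lists were described by counts and medians without a test. Alternatives were other normalizations and centrings, averaging probe sets, dropping dim genes, fitting cells and hearts apart, the replicate number as a block, array weights, eBayes without the trend, other reference genes and percentiles, and leaving out each array; centring on chemosensory genes, and list counts without each array, were added after seeing the data. Replicates correlated at 0.992 to 0.995 in cells, 0.993 in WT hearts and 0.98 in KD hearts.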

Additional observations from a re-analysis of the deposited data

Results flagged for a closer look

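In 2 of the 9 genes every KD array lay on one side of the WT mean in cardiomyocytes and every KD array on the other side in hearts, as in 9.03% of all genes. For Colq the KD minus WT difference in cardiomyocytes minus that in hearts was -0.64 (SE 0.20; limma adjusted p = 0.999, and 0.101 to 1 over its alternatives). It was -0.47 without KD heart array 1, the array with the thymocyte signal. For Bche it was 0.49 (SE 0.26; limma adjusted p = 0.999, and 0.776 to 1 over its alternatives), and 0.30 without WT cardiomyocyte array 2. Neither passed the test of the difference itself.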

How the results depend on the processing

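No member passed the threshold under any alternative run (lowest limma adjusted p 0.639, and 0.101 with an array left out). Of 228 member values under alternatives that kept all arrays, 222 kept their direction. The others were small: Chat in hearts was -0.01 with quantile normalization and turned just below 0 (0.00) with median centring, Slc44a1 in cells was -0.08 with the mean of its probe sets, the cell minus heart difference of Slc22a2 was 0.02 and of Prima1 0.01 when centred on chemosensory genes (an alternative chosen after seeing the data), and that of Slc22a2 was 0.00 with array weights. With 1 array left out 28 of 180 values turned. KD minus WT then ranged in cells from -0.08 to 0.03 for Slc5a7, -0.02 to 0.07 for Slc44a1, -0.01 to 0.07 for Prima1 and -0.04 to 0.15 for Slc22a2, and in hearts from -0.22 to 0.31 for Slc18a3, -0.22 to 0.27 for Chat, -0.08 to 0.34 for Slc5a7, -0.21 to 0.06 for Slc44a1 and -0.05 to 0.17 for Slc22a2. The cell minus heart difference ranged from -0.15 to 0.37 for Slc18a3, -0.22 to 0.27 for Chat, -0.36 to 0.05 for Slc5a7, -0.08 to 0.00 for Prima1, -0.03 to 0.23 for Slc44a1 and -0.14 to 0.09 for Slc22a2. Colq and Bche kept their directions under the alternatives run, with ranges for Colq of -0.31 to -0.18 in cells and 0.24 to 0.59 in hearts, and for Bche of 0.05 to 0.44 and -0.39 to -0.11. The filter on dim genes removed Chat and Slc5a7. With the 99th percentile of the chemosensory genes, 3 of 9 members lay above it in each group. The share of all genes above the 99th is not given here. At the 95th there were 6 in WT and KD cells and in WT hearts and 7 in KD hearts, where 61.4% to 63.4% of all genes lay above it. Over all genes, leaving out 1 heart array gave 0 to 303 calls in hearts and 0 to 237 in the difference, the most without KD array 2, where KD array 1 with its thymocyte signal stood alone; without WT array 1 there were 2 in each. With the replicate block there was 1 call in hearts and 0 in cells, and no member was among them. The block left the Slc18a3 difference in cells at 0.16, with an SE of 0.09 in place of 0.16 (unadjusted p = 0.1 in limma). The numbers were not taken to pair the arrays, and these values do not settle whether they do. Same-numbered WT and KD cell arrays had deviation correlations of 0.15, 0.13 and -0.05, and differently numbered ones -0.19 to 0.07. WT cell arrays 1 and 2 correlated best with their own number, and WT cell array 3 did not. In hearts the correlation was 0.23 for the same number. With 2 arrays per group, the value for different numbers is this value with its sign changed, so it adds nothing. Slc18a3, Slc5a7 and Ache were highest on array 2 of every group. The number of arrays limits the precision.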
